A study of Mus musculus with 9 samples.

Results

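RNA-seq of retinas from MSC-EVs-treated rd10 mice was compared with RNA-seq of retinas from WT mice, both taken at P28. The comparison used 6 of the 9 libraries of the study, 3 per group, chosen by their labels, and asked which transcripts of the rd10 retina stayed below or above the WT level after treatment. MSC-EVs are extracellular vesicles, small membrane particles that cells release, and here they came from mesenchymal stem cells of human umbilical cord. The rd10 mice carried the rd10 mutation of Pde6b, the gene of the β subunit of PDE6 in rods, and had received 1 μl of MSC-EVs into the vitreous of both eyes at P14 and again at P21. The WT mice were C57BL/6J, had no injection and came from another supplier than the rd10 mice. Genotype, injection and supplier therefore cannot be told apart in this comparison, and the saline-injected rd10 libraries enter it only in 1 alternative fit. Y-linked genes took 0.019% and 0.0196% of the counts in treated libraries 1 and 2. In treated library 3 and in each WT library the share was 0% after rounding. Judged by these genes, sex was unbalanced between the groups as well, and its part cannot be told apart either. The labels state neither sex nor whether a library held 1 retina or several, so the p-values measure the spread between these libraries, which may be partly technical.

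Rods see dim light through a cascade in which a light-sensitive pigment activates transducin, transducin activates the phosphodiesterase PDE6, and the fall in cGMP closes cation channels in the outer segment. When a subunit of PDE6 is defective, rods degenerate first and cones follow. Müller glia, the radial glia that span the retina, and microglia, its resident immune cells, are known to respond to dying photoreceptors. The transcription factors CRX and OTX2 bind a homeobox core, TAATCC, in front of many photoreceptor genes. STAT factors, which act downstream of cytokine receptors, bind TTCNNNGAA, and interferon-stimulated genes often hold GAAA, any 2 bases and GAAA, the element read by interferon regulatory factors.

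Stretches of 30 bases around such motifs are shown for 14 genes of the lists described here, since these motifs are known for rod, cytokine-driven and interferon genes. All 14 were differentially expressed by the limits given below, and list genes that were not can hold the motifs too. TAATCC was also in list genes that missed those limits, Gnb5, Gnat2, Rbp3, Otx2 and Thrb among others, and in Mfrp, which was higher. TTCNNNGAA was also in Bdnf, which missed them. The stretches shown are RefSeq sequences of GRCm38.p6, written 5′ to 3′ on the strand of the gene, with the motif or its reverse complement in capitals. The rod phototransduction genes Gngt1, Cngb1, Sag and Guca1a, which encode the transducin γ subunit, a channel subunit, arrestin and a guanylate cyclase activator, hold TAATCC, as does Crx itself.
Gngt1, chr6:3993952-3993981, plus strand: tcatattaggggGGATTAtgaagaagcttt
Cngb1, chr8:95306626-95306655, minus strand: ttctgcacatgcTAATCCtttgcacccggc
Sag, chr1:87803581-87803610, plus strand: taaagaggtttaGGATTAaaaaaaaaaaaa
Guca1a, chr17:47400646-47400675, minus strand: cctgttaagaagGGATTAgcagactgcaaa
Crx, chr7:15880032-15880061, minus strand: gtgggggtggtgGGATTAagcagacggtgc
The gliosis genes Gfap, Socs3 and Steap4, which encode a glial intermediate filament, a STAT feedback inhibitor and a metalloreductase, hold TTCNNNGAA.
Gfap, chr11:102897183-102897212, minus strand: atgggggtgcTTCCAGGAAgtcaggggcag
Socs3, chr11:117969501-117969530, minus strand: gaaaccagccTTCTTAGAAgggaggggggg
Steap4, chr5:7960346-7960375, plus strand: ggttgaactcTTCCCGGAAactttgcttca
The interferon-stimulated genes Ifit1, Isg15, Rsad2, Bst2 and Gbp2 and the MHC class I light chain gene B2m hold the interferon element.
Ifit1, chr19:34640775-34640804, plus strand: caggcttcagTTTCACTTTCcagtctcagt
Isg15, chr4:156200871-156200900, minus strand: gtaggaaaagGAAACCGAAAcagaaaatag
Rsad2, chr12:26456553-26456582, minus strand: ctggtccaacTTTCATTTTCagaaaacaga
Bst2, chr8:71537577-71537606, minus strand: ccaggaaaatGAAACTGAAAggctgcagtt
Gbp2, chr3:142620594-142620623, plus strand: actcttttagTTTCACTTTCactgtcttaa
B2m, chr2:122147538-122147567, plus strand: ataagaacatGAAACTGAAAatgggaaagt

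The estimated counts summed to between 21719248 and 24155027 in the WT libraries and to 23058113, 22604485 and 62532343 in MSC-EVs 1, 2 and 3. MSC-EVs 3 was thus the deepest. Levels are given as CPM, counts scaled to library size by edgeR's TMM factors, in the order of replicates 1, 2 and 3, and fold changes are MSC-EVs-treated rd10 over WT. With edgeR's quasi-likelihood test on 14623 genes, 1784 genes were differentially expressed, which is 12.2% of those tested. A gene was called where its p, adjusted by Benjamini-Hochberg, was under 0.05 and its log2 fold change was 1 or more in size. Of these, 1316 were higher in MSC-EVs-treated rd10 (9.0%) and 468 lower (3.20%). The counts of genes that rose or fell in each list below are to be read beside these shares. The lists were chosen with earlier results of these data known, so their counts are descriptions and not independent evidence. With libraries scaled to the amacrine and ganglion cell genes instead, 1070 were higher and 729 lower, and with library totals alone 1604 and 349. These scalings moved the median log2 fold change of all genes from -0.004 to -0.173 and to 0.15. All libraries of a group lay above all of the other for 1776 of the 1784 genes, and for 65.2% of all genes tested. All cell classes of the retina were found by their markers in both groups.

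The rod phototransduction genes stayed far below WT. Of the 22 genes, all of them tested, 20 were differentially expressed and lower, none was higher, and their median log2 fold change was -1.64. Pde6b, the mutated gene itself, on chromosome 5 from 108388391 to 108432397 (GRCm38), had 2430, 2360 and 2540 CPM in WT and 463, 587 and 696 in MSC-EVs-treated rd10. Its transcript fell by 2.07 on the log2 scale (SE 0.14, edgeR adjusted p = 2.59e-05), and its partner subunit genes Pde6a and Pde6g fell by 1.39 and 2.04. Because retinas were sequenced whole, fewer rods and less RNA per rod cannot be told apart.

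Within the cascade the members did not fall alike. The lowest fitted values were those of Pdc, which encodes phosducin, a binder of the transducin βγ pair, and Guca1b, a calcium sensor of the guanylate cyclases. Pdc had 2710, 2610 and 2540 CPM in WT and 378, 596 and 582 in MSC-EVs-treated rd10, a log2 fold change of -2.34 (SE 0.18, edgeR adjusted p = 0.000107). Gnat1, the rod transducin α subunit, fell from 14800, 14500 and 15900 CPM to 2730, 3450 and 4260 (-2.11, SE 0.15, edgeR adjusted p = 3.19e-05). At the other end, Sag, the rod arrestin that ends the light response, fell only from 4620, 4280 and 4970 CPM to 1780, 2200 and 2360 (-1.13, SE 0.11, edgeR adjusted p = 3.78e-05). Aipl1, a chaperone for PDE6, fell by 1.05, and by 0.97 without MSC-EVs 1, which is under the fold limit. With library totals alone Sag and Aipl1 both missed that limit (-0.97 and -0.90). Rgs9 and Gnb5, parts of the complex that switches transducin off, did not reach the fold limit, with log2 fold changes of -0.51 and -0.85, and their anchor Rgs9bp fell by 2.01. The 20 genes that fell kept between 19.8% and 48.2% of their WT level.

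On the FPKM scale, which also divides by transcript length and so allows genes to be ranked, Gnat1 went from rank 6 of all genes in WT to rank 14 in MSC-EVs-treated rd10, at means of 6130 and 1570. Sag went from rank 12 to rank 20, at means of 2550 and 1300 FPKM. Other rod genes moved further down the order, as Cnga1, a channel subunit, did from rank 152 to 536, and Rgs9bp from 226 to 1343. The rod list as a whole took 8.87% of the counts in WT on average and 2.58% in MSC-EVs-treated rd10. As a multiple of the WT mean its share was 0.241, 0.304 and 0.328 in MSC-EVs 1, 2 and 3. MSC-EVs 1 was the lowest of the 3 for 22 of 22 rod genes.

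**Figure D1:**
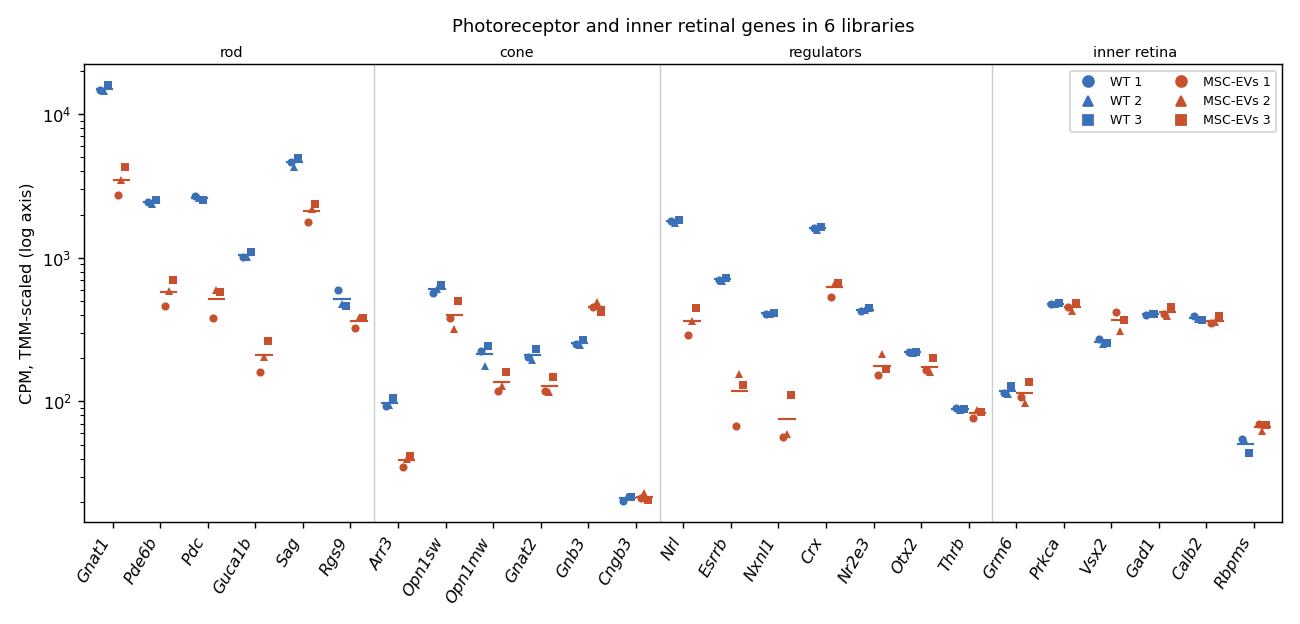
CPM on a log axis of rod, cone, regulator and inner retinal genes in 6 libraries, with WT in blue, MSC-EVs-treated rd10 in red, 1 marker shape per replicate and bars at the means. The 3 treated libraries lie below WT for Gnat1 (2730 to 4260 against 14500 to 15900 CPM), and the groups overlap for Cngb3, Grm6, Gad1 and Calb2.

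Structural genes of the outer segment, the stack of discs that captures light, followed the cascade. Of 18 genes 17 were tested, 9 fell, 1 rose, and the median was -1.20. Prph2, the peripherin of the disc rim, had 5010, 4910 and 5090 CPM in WT and 982, 1310 and 1350 in MSC-EVs-treated rd10 (-2.04, SE 0.11, edgeR adjusted p = 3.19e-06). Its partner Rom1 fell by 1.79 and the actin bundler Fscn2 by 2.10. Rbp3, which carries retinoids between cells, was at -0.97 and missed the fold limit. The 1 gene that rose was Mfrp, a receptor known from the pigment epithelium, at 2.19, 4.91 and 3.66 CPM in WT and 5.88, 7.53 and 9.83 in MSC-EVs-treated rd10 (1.12). Mfrp lost its call without WT 1 (0.86), WT 3 (edgeR adjusted p = 0.0515) or MSC-EVs 3 (0.90). The pigment epithelium list took 1.57, 1.51 and 2.02 times its WT share of counts in MSC-EVs 1, 2 and 3, and its part in the rise of Mfrp was not tested.

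Cone genes stood between rod genes and inner retinal genes. Of 12 cone phototransduction genes, all tested, 2 were differentially expressed, both lower, and the median was -0.29. Over all genes tested, 12.2% were differentially expressed and 3.20% were lower. Arr3, the cone arrestin, had 93.3, 94.8 and 106 CPM in WT and 35.2, 39.8 and 41.6 in MSC-EVs-treated rd10, and fell by 1.33 (SE 0.08, edgeR adjusted p = 1.33e-06). Kcnv2, a potassium channel subunit that rods use as well, fell from 907, 883 and 964 CPM to 199, 221 and 303 (-1.93, SE 0.16). The opsins missed the fold limit, and all their treated libraries lay below WT, as they did for 32.8% of all genes tested. Opn1sw, the short-wavelength opsin, had 566, 605 and 649 CPM in WT and 383, 317 and 502 in MSC-EVs-treated rd10 (-0.60, SE 0.17, edgeR adjusted p = 0.0249). Opn1mw, the middle-wavelength opsin, had 223, 175 and 243 CPM in WT and 118, 129 and 161 in MSC-EVs-treated rd10 (-0.65, SE 0.16, edgeR adjusted p = 0.0141). Gnat2, the cone transducin α subunit, was at -0.71 (edgeR adjusted p = 0.000585).

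The remaining cone genes lay nearer to WT or above it. The transducin γ gene Gngt2 was at -0.24 and the inhibitory phosphodiesterase subunit gene Pde6h at -0.33. The channel subunits Cnga3 (0.12) and Cngb3 (0.03) and the phosphodiesterase Pde6c (0.19) had adjusted p values of 0.43, 0.816 and 0.0996 in edgeR's test. Gnb3, a transducin β subunit that ON bipolar cells also use, had 252, 248 and 269 CPM in WT and 454, 495 and 421 in MSC-EVs-treated rd10 (0.83, edgeR adjusted p = 7.69e-06). The exchanger Slc24a2 was at 0.59 (edgeR adjusted p = 5.2e-05). The cone list took 76.2% of its WT share of counts, and the rod list 29.1%.

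The list of regulators of photoreceptor identity split, and it also counts Nxnl1, which is not a transcription factor. Of 16 tested, 9 fell and none rose, with a median of -1.26. Nrl, the factor that commits precursors to the rod fate, had 1800, 1750 and 1820 CPM in WT and 288, 362 and 447 in MSC-EVs-treated rd10 (-2.29, SE 0.15, edgeR adjusted p = 3.49e-05). Esrrb, an orphan receptor of rods, fell from 703, 693 and 726 CPM to 67.2, 155 and 130 (-2.59, SE 0.33, edgeR adjusted p = 0.00198). Nxnl1, which encodes rod-derived cone viability factor, a protein that rods supply to cones, fell from 409, 408 and 414 CPM to 56.8, 59.1 and 110 (-2.43, SE 0.29, edgeR adjusted p = 0.00158). In both of these genes the treated libraries differed among themselves by more than the WT libraries did, and all lay below WT.

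Crx fell by 1.37, to 535, 663 and 667 CPM from 1600, 1550 and 1650 in WT, and the rod factor Nr2e3 fell by 1.29. Otx2, which bipolar cells and pigment epithelium express as well, had 219, 218 and 222 CPM in WT and 165, 159 and 200 in MSC-EVs-treated rd10 (-0.33, edgeR adjusted p = 0.00692). The cone factors Thrb (-0.11) and Rxrg (0.00) had adjusted p values of 0.157 and 0.988. TAATCC on either strand was found in 9 of the 15 rod phototransduction promoters that the RefSeq table held, from 250 bases before to 50 after a start. It was in 10.6% of the promoters of all lower genes, in 5.88% of those of all genes tested, in 1 of 23 amacrine and in 0 of 13 ganglion cell promoters. Among raised genes it was in 7.35% of the promoters of all higher genes and in 8.82% of those of the gliosis list. Of the interferon, MHC class II and MHC class I promoters, 13.9%, 14.3% and 0 of 18 held it. The motif was thus not particular to lower genes. A match is a description of letters, not of binding.

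Genes of the rod terminal and of the connecting cilium were lower in part. Of 20 ribbon synapse genes, all tested, 5 fell, with a median of -0.80. These were the calcium channel gene Cacna1f (-1.15), its regulator Cabp4 (-1.69), the lipid-binding trafficking gene Unc119 (-1.67), the scaffold gene Mpp4 (-1.34) and the vesicular glutamate transporter gene Slc17a7 (-1.23). Slc17a7 had 2080, 1980 and 2070 CPM in WT and 776, 859 and 986 in MSC-EVs-treated rd10. The active zone genes Bsn (0.15), Pclo (0.19) and Rims1 (0.27), which other retinal synapses share, lay near WT, each with an adjusted p under 0.05 and far from the fold limit, and Bsn turned to -0.02 with scaling to amacrine and ganglion cell genes. With that scaling, 10 of the ribbon synapse genes were called.

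Of 24 genes of the photoreceptor cilium, all tested, 6 fell and 1 rose, with a median of -0.53, where 3.20% of all genes fell and 9.0% rose. Fam161a, a protein of the ciliary microtubules, had 245, 249 and 265 CPM in WT and 68.9, 83.1 and 87.6 in MSC-EVs-treated rd10 (-1.66, SE 0.09, edgeR adjusted p = 9.25e-07). Rpgrip1 fell by 1.44, while its binding partner Rpgr was at -0.12 (edgeR adjusted p = 0.363). Tulp3, a cilium cargo adaptor found in many cell types, had 22.8, 21.9 and 21 CPM in WT and 48.1, 51.3 and 35.5 in MSC-EVs-treated rd10, and rose by 1.03. Its log2 fold change was 0.98 without MSC-EVs 1 and 0.92 without MSC-EVs 2, and without WT 3 it was just under the limit. Of 13 visual cycle genes, all tested, 3 fell and 1 rose, with a median of -0.01, beside the same 3.20% and 9.0% of all genes. Abca4, Rdh8 and Rdh12, which clear retinal from the outer segment, fell by 1.63, 1.14 and 1.72.

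Few genes of the inner retinal neuron lists passed the fold limit. The lists for ON bipolar signalling, bipolar identity, horizontal, amacrine and ganglion cells held 78 different genes tested, of which 1 rose and 1 fell. Over all genes tested, 9.0% rose and 3.20% fell. The bipolar identity, horizontal, amacrine and ganglion lists took 1.23, 1.36, 1.25 and 1.24 times their WT share of counts, and the ON bipolar list 0.793 times. With no limit on fold, 33 of the 78 were higher and 9 lower at an adjusted p under 0.05, where 28.3% and 27.2% of all genes were, 55.5% together. The gene that rose was Onecut2, a horizontal and ganglion cell factor (10.2, 12.6 and 13 CPM in WT, 30.5, 26.9 and 23.9 in MSC-EVs-treated rd10, log2 fold change 1.18). The gene that fell was Rgs9bp, which photoreceptors use as well.

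The ON bipolar cascade, which turns photoreceptor glutamate into a light response, had a median of 0.01. Grm6, its glutamate receptor, had 114, 112 and 129 CPM in WT and 108, 96.8 and 136 in MSC-EVs-treated rd10, with groups that overlapped (-0.05, edgeR adjusted p = 0.749). Trpm1, its channel, had 235, 213 and 235 CPM in WT and 375, 313 and 367 in MSC-EVs-treated rd10 (0.63, edgeR adjusted p = 9.97e-05). Among amacrine genes, with a median of 0.09 and none called of 22, Gad1, the GABA-synthesizing enzyme, had 402, 413 and 409 CPM in WT and 406, 395 and 453 in MSC-EVs-treated rd10. Among ganglion cell genes, with a median of 0.19 and none called of 17, Rbpms had 54.3, 53.4 and 43.6 CPM in WT and 69.1, 62.1 and 68.2 in MSC-EVs-treated rd10 (0.40, edgeR adjusted p = 0.00373). The share of counts taken by the amacrine list was 1.19 to 1.31 times its WT mean.

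**Figure D2:**
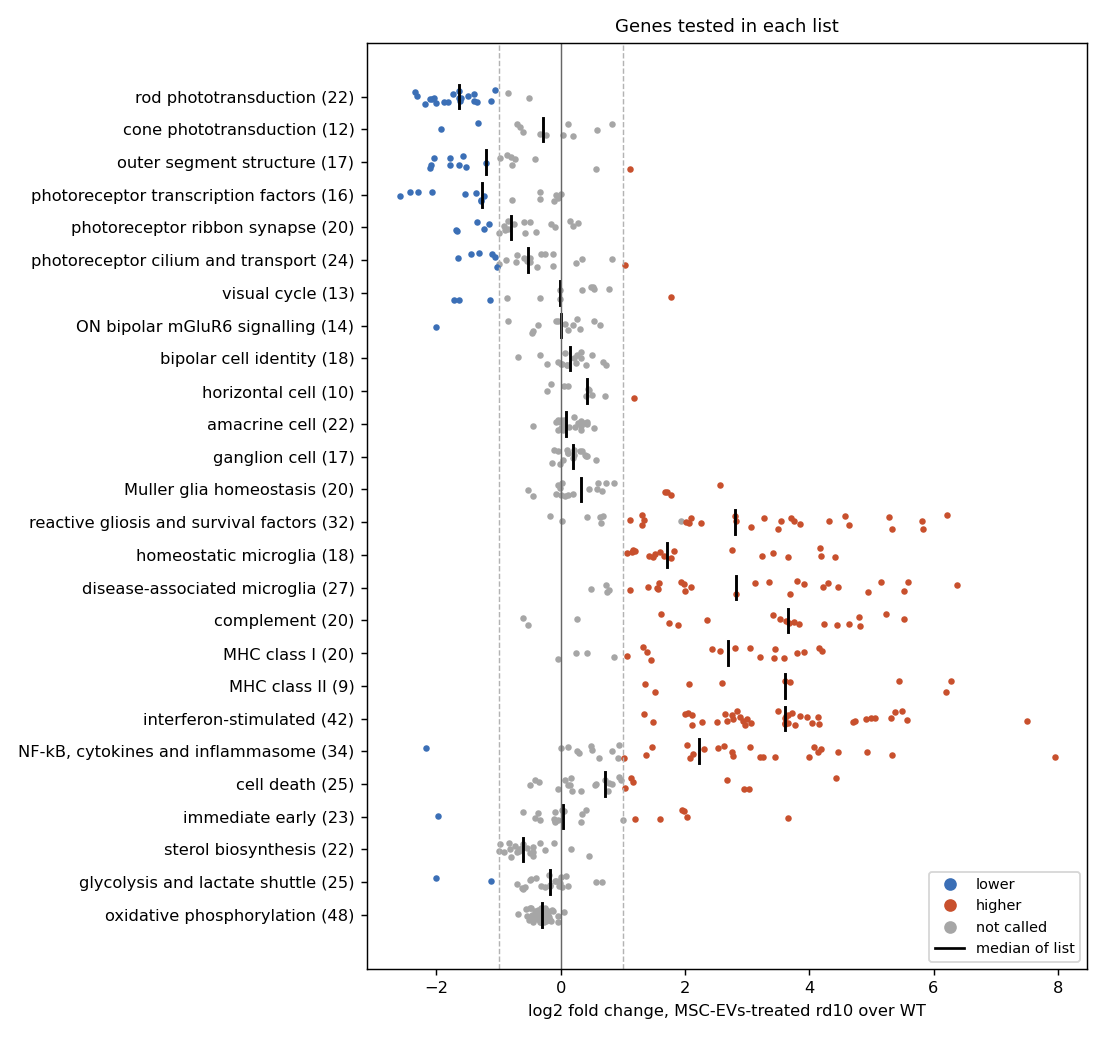
Log2 fold change of each gene tested in 26 lists (number tested in brackets), lower genes in blue, higher in red, others in grey, black bars at list medians and dashed lines at the fold limit. Rod phototransduction is centred at -1.64, amacrine and ganglion cell genes at 0.09 and 0.19, and interferon-stimulated genes at 3.61.

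Homeostatic genes of Müller glia were mixed, while reactive glial genes stood high. Of 20 homeostatic genes tested, 4 rose and none fell, with a median of 0.32, where 9.0% of all genes rose. With no limit on fold, 11 were higher and 2 lower at an adjusted p under 0.05, and the list took 1.40, 1.33 and 1.32 times its WT share of counts in MSC-EVs 1, 2 and 3. Glul, the enzyme that turns glutamate into glutamine, had 2720, 2740 and 2540 CPM in WT and 1820, 1690 and 2070 in MSC-EVs-treated rd10 (-0.52, edgeR adjusted p = 0.000364). Rlbp1, their retinal-binding protein, was at -0.01 and the glutamate transporter gene Slc1a3 at 0.58. Clu, a secreted chaperone, had 593, 607 and 587 CPM in WT and 1880, 2010 and 1840 in MSC-EVs-treated rd10, and rose by 1.68 (SE 0.06, edgeR adjusted p = 6.54e-08). Crym rose by 2.56, Gpr37l1 by 1.71 and Sox9 by 1.78, the last with an adjusted p of 0.0543 to 0.0613 in edgeR's test when any 1 WT library was left out.

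Of 32 gliosis and survival genes, all tested, 25 rose and none fell, with a median of 2.81, where 9.0% of all genes rose. Gfap had 48.5, 41.8 and 47.0 CPM in WT and 448, 504 and 373 in MSC-EVs-treated rd10 (3.27, SE 0.12, edgeR adjusted p = 8.88e-07). Serpina3n, a secreted protease inhibitor of reactive glia, had 11.8, 10.4 and 12 CPM in WT and 727, 682 and 523 in MSC-EVs-treated rd10 (5.82, SE 0.15, edgeR adjusted p = 3.55e-07). Of its 31-base stretches, 21.6% occur in other genes. Lcn2, an iron-trapping acute phase protein, had 6.00, 6.00 and 5.02 CPM in WT and 496, 338 and 140 in MSC-EVs-treated rd10 (5.83, SE 0.66, edgeR adjusted p = 0.0019). The treated libraries thus varied over a wider range for Lcn2 than for Serpina3n, and all were above WT.

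The survival axis in which stressed photoreceptors and glia exchange endothelin 2, FGF2 and cytokines of the LIF family stood high. Edn2 had 6.78, 8.41 and 8.39 CPM in WT and 55.6, 46.3 and 62.2 in MSC-EVs-treated rd10 (2.80, SE 0.13, edgeR adjusted p = 5.22e-07). Fgf2 had 52.9, 48.1 and 46.6 CPM in WT and 437, 364 and 435 in MSC-EVs-treated rd10 (3.07, SE 0.09, edgeR adjusted p = 3.01e-08). Stat3 had 78.0, 76.3 and 82.3 CPM in WT and 377, 383 and 362 in MSC-EVs-treated rd10 (2.25, SE 0.06, edgeR adjusted p = 5.92e-09). The cytokine receptor gene Osmr rose by 3.71, its co-receptor gene Il6st by 1.11 (0.94 with scaling to amacrine and ganglion cell genes), and A2m, a plasma protease inhibitor, by 4.57. These genes varied little between treated libraries, as Osmr did at 147, 129 and 135 CPM.

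Socs3 and Lif varied more. Socs3 had 2.85, 3.90 and 4.15 CPM in WT and 54.4, 124 and 40.0 in MSC-EVs-treated rd10 (4.32, SE 0.61), and 3.69 without MSC-EVs 2. Lif had 0.481, 0.613 and 0.780 CPM in WT and 2.62, 16.7 and 2.92 in MSC-EVs-treated rd10 (3.54, edgeR adjusted p = 0.0322). Without MSC-EVs 2 its log2 fold change was 2.15, and without any 1 WT library its adjusted p was 0.0805 to 0.0947. Ptx3, at 1.35, 10.3 and 1.29 CPM in MSC-EVs-treated rd10, was not called (edgeR adjusted p = 0.157). The neurotrophic genes Bdnf (0.65) and Gdnf (0.02) were not called either. TTCNNNGAA was in 4 of 34 promoters of the gliosis list, 11.8%, beside 6.69% of the promoters of all genes tested. It was also in 28.6% of the outer segment, 27.8% of the interferon and 15.4% of the regulator promoters.

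Microglial transcripts stood above WT in all libraries. Of 18 homeostatic microglia genes, all tested, 18 rose, with a median of 1.71. The identity genes were the least raised. Cx3cr1, the fractalkine receptor, had 4.64, 5.52 and 4.24 CPM in WT and 12.8, 11 and 9.56 in MSC-EVs-treated rd10 (1.2, SE 0.16, edgeR adjusted p = 0.000156). P2ry12, the purinergic receptor of resting microglia, had 3.63, 3.68 and 2.73 CPM in WT and 7.11, 9 and 5.11 in MSC-EVs-treated rd10 (1.06), and fell under the fold limit without WT 3 (0.94) or MSC-EVs 2 (0.84). Csf1r, the receptor that microglia need to survive, had 11.8, 10.5 and 11.8 CPM in WT and 75.1, 96.8 and 60.5 in MSC-EVs-treated rd10 (2.76, SE 0.18, edgeR adjusted p = 2.41e-05). Adgre1, which encodes F4/80, rose by 4.41 and Aif1, which encodes Iba1, by 3.66.

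Of 27 disease-associated microglia genes, all tested, 23 rose and none fell, with a median of 2.82. With at least 10 counts required in every library, 17 were called higher. Trem2, a lipid-sensing receptor, had 1.05, 1.49 and 1.02 CPM in WT and 11.2, 12.7 and 7.56 in MSC-EVs-treated rd10 (3.12, SE 0.25, edgeR adjusted p = 7.39e-06). Cst7, a protease inhibitor, rose by 6.37 from 0.0438 to 0.0875 CPM in WT to 4.57 to 6.94. Its WT libraries were all under a floor of 3 counts per library, so the size of this rise rests on few reads. Gpnmb, a lysosomal glycoprotein, had 5.21, 7.40 and 6.78 CPM in WT and 159, 140 and 129 in MSC-EVs-treated rd10 (4.47, SE 0.13, edgeR adjusted p = 1.71e-07). Apoe rose by 1.94, the macrosialin gene Cd68 by 4.22 and the lysosomal gene Ctsd by 1.55. Lpl (0.73), Ctsb (0.74), Igf1 (0.77) and Fabp5 (0.48) did not reach the fold limit.

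Genes of monocytes, macrophages and neutrophils differed in level in WT. Of 20, 10 were tested, 7 rose and none fell. Lyve1, a receptor of resident macrophages and lymphatic vessels (18.1 to 18.5 CPM in WT), and Mmp9, a matrix protease (28.8 to 31.8), were well above 0 in WT and were not called, at -0.10 and 0.16. Ccr2, the monocyte chemokine receptor, had 0.0438, 0.0438 and 0 CPM in WT and 5.03, 1.68 and 0.731 in MSC-EVs-treated rd10 (6.13, edgeR adjusted p = 0.00532), and 5.08 without MSC-EVs 1. Its WT libraries were all under a floor of 3 counts per library. Arg1, an arginine-consuming enzyme, had 0.569, 0.569 and 0.341 CPM in WT and 13.3, 10.6 and 0.928 in MSC-EVs-treated rd10, and its adjusted p went from 0.0388 to between 0.058 and 0.13 without any 1 WT library, MSC-EVs 1 or MSC-EVs 2. Mrc1, which encodes CD206, had 0.175, 0.0438 and 0.146 CPM in WT and 4.21, 6.23 and 0.335 in MSC-EVs-treated rd10, and did not pass the count filter. The neutrophil genes S100a8 and Ly6g were at or under 0.167 CPM in every library. MSC-EVs 3 was the lowest treated library for Ccr2, Arg1 and Mrc1, and over the 10 genes tested it was the lowest for 6 and the highest for 3. The share of counts of all 20 genes, tested or not, was 2.22, 2.38 and 1.90 times the WT mean in MSC-EVs 1, 2 and 3.

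Complement, the cascade of plasma proteins that tags cells for removal, was raised at most of its steps. Of 26 genes 20 were tested, 17 rose and none fell, with a median of 3.65. With at least 10 counts required in every library, 12 were called higher. C1qa, of the recognition complex that microglia make, had 6.17, 6.53 and 4.68 CPM in WT and 69.7, 94.0 and 51.4 in MSC-EVs-treated rd10 (3.62, SE 0.28, edgeR adjusted p = 0.000137). C3, the central component, had 4.29, 3.99 and 3.90 CPM in WT and 188, 189 and 82.5 in MSC-EVs-treated rd10 (5.23, SE 0.46, edgeR adjusted p = 0.000586). C4b rose by 4.64, with 48.3% of its 31-base stretches shared with other genes, and the receptor gene C3ar1 rose by 4.8. The inhibitors did not move as a group. Serping1, the C1 inhibitor gene, rose by 4.23, while Cd55 was at 0.26 and Cd59a at -0.52 (34.7, 36.4 and 36.7 CPM in WT, 23.7, 23.5 and 27.8 in MSC-EVs-treated rd10, edgeR adjusted p = 0.000676).

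Genes of both routes of antigen presentation rose. Of 20 MHC class I genes, all tested, 16 rose and none fell, with a median of 2.69. H2-K1, a heavy chain, had 18.3, 18.8 and 21.3 CPM in WT and 222, 266 and 146 in MSC-EVs-treated rd10 (3.44, SE 0.26, edgeR adjusted p = 0.000195). B2m, the light chain, had 20.9, 23.6 and 20.7 CPM in WT and 340, 371 and 199 in MSC-EVs-treated rd10 (3.80, SE 0.28, edgeR adjusted p = 0.000236). Heavy chain genes resemble each other, and 22.8% of the stretches of H2-K1 and 50.3% of those of H2-Q6 occur in other genes, so reads may be divided between them. The peptide transporter gene Tap1 rose by 3.45 and the immunoproteasome gene Psmb8 by 3.05, while the general chaperone genes Calr (-0.04), Canx (0.24) and Pdia3 (0.42) did not reach the fold limit.

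Of 12 MHC class II genes 9 were tested and 9 rose, with a median of 3.61. Genes near 0 in WT can pass the count filter through the treated libraries alone, which favours rises among those tested. With at least 10 counts required in every library, 3 were called higher. Cd74, the invariant chain, had 0.350, 0.219 and 0.390 CPM in WT and 27.5, 39.2 and 9.33 in MSC-EVs-treated rd10 (6.28, SE 0.87, edgeR adjusted p = 0.0027). H2-Aa rose by 5.45 and H2-Eb1 by 6.20, or by 6.97 without WT 1, both from under 1 CPM in WT. Ciita, the master regulator of the class, had 0.481, 0.219 and 0.341 CPM in WT and 1.51, 1.01 and 0.609 in MSC-EVs-treated rd10 (1.52, edgeR adjusted p = 0.0195). Its adjusted p was 0.0837, 0.0651 and 0.077 without WT 2, WT 3 and MSC-EVs 1.

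The interferon-stimulated list was the list with every member raised and the most members. Its members were chosen with earlier results of these data known, so this count is a description and not independent evidence. Of 42 genes, all tested, 42 rose, with a median of 3.61, and for all of them the groups did not overlap, as for 32.4% of all genes tested in this direction. With at least 10 counts required in every library, 31 were called higher. Irf7, which amplifies the interferon response, had 11.2, 12.4 and 11.4 CPM in WT and 103, 109 and 48.4 in MSC-EVs-treated rd10 (2.89, SE 0.37). Ifit1, which binds foreign RNA ends, had 3.63, 2.10 and 2.73 CPM in WT and 109, 114 and 34.5 in MSC-EVs-treated rd10 (4.91, SE 0.68, edgeR adjusted p = 0.00339). Isg15, a ubiquitin-like modifier, rose by 4.16, Rsad2, an antiviral enzyme, by 5.32, and Gbp2, an interferon-induced GTPase, by 3.85. The RNA sensor genes Ddx58 and Ifih1 rose by 2.76 and 2.77.

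Mx1, an antiviral GTPase, had 1 count in the 3 WT libraries together and 318 in the treated ones, a ratio of levels of 185 with a 95% counting interval of 32.9 to 7320. That 1 count lay in WT 1, and the fitted log2 fold change went from 7.51 to 9.79 without it. Intervals of this kind cover counting error only. The interferon element, on either strand, was in 20 of 36 promoters of the interferon list, or 55.6%, in 4 of 18 of the MHC class I list and in 3.02% of the promoters of all genes tested. It was in 8.2% of the promoters of all 1316 higher genes. For 42 of 42 interferon genes MSC-EVs 3 was the lowest treated library, and it was the lowest for 20 of 20 MHC class I genes. Over all 1316 higher genes MSC-EVs 3 was the lowest for 984. The list's share of counts was 9.61, 8.95 and 4.75 times the WT mean in MSC-EVs 1, 2 and 3.

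**Figure D3:**
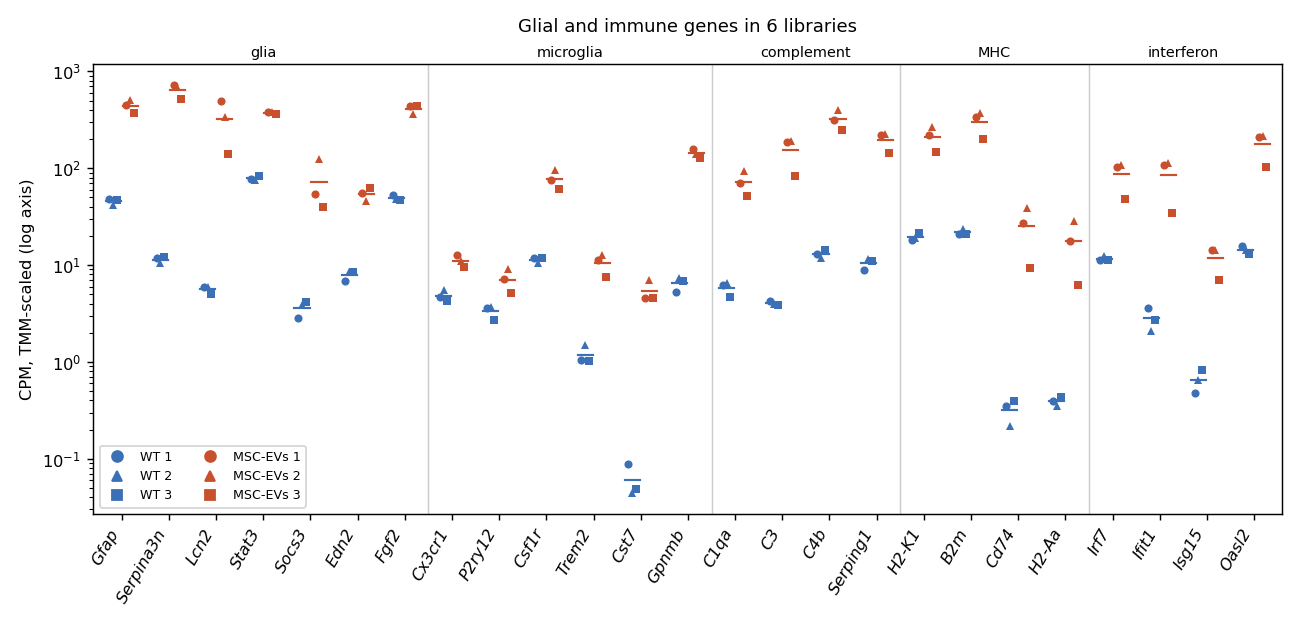
CPM on a log axis of glial, microglial, complement, MHC and interferon genes in 6 libraries, with WT in blue, MSC-EVs-treated rd10 in red, 1 marker shape per replicate and bars at the means. All treated libraries lie above all WT libraries for the genes drawn, from 9.56 to 12.8 against 4.24 to 5.52 CPM for Cx3cr1 to 9.33 to 39.2 against 0.219 to 0.390 CPM for Cd74.

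Of 37 genes of NF-κB, cytokines and the inflammasome, 34 were tested, 23 rose and 1 fell, with a median of 2.22. With at least 10 counts required in every library, 13 were called higher. The subunit genes were unequal. Rela, which encodes p65, had 26.5, 26.9 and 27.6 CPM in WT and 34.9, 47.2 and 33.7 in MSC-EVs-treated rd10 (0.51, edgeR adjusted p = 0.00668). Nfkb1 was at 0.92, and Nfkb2, of the alternative route, rose by 2.75. The inhibitor gene Nfkbia had 20.9, 20.7 and 22.1 CPM in WT and 21.5, 34.5 and 22.9 in MSC-EVs-treated rd10 (0.30, edgeR adjusted p = 0.171). Bcl3, an atypical member of the IκB family, rose by 5.33, from 1.40, 0.876 and 0.293 CPM to 38.2, 38.0 and 29.7.

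The gene that fell was Tnfaip3, which encodes the NF-κB inhibitor A20. It had 395, 356 and 370 CPM in WT and 64.2, 74.3 and 109 in MSC-EVs-treated rd10 (-2.17, SE 0.21, edgeR adjusted p = 0.000405). All treated libraries lay below WT, as for 32.8% of all genes tested. They stood in the order of the rod list's share, with MSC-EVs 1 lowest and MSC-EVs 3 highest. Which cells the lost transcript came from was not tested. Il1b rose by 4.93, with 0, 0.0438 and 0.0975 CPM in WT and 0.940, 2.78 and 0.944 in MSC-EVs-treated rd10. Its log2 fold change was 5.88 without WT 3 and 4.26 without MSC-EVs 2, and its WT libraries were all under a floor of 3 counts per library. The Il-1 receptor gene Il1r1 rose by 2.31, and Il1rn, its natural antagonist, was at 0 in WT and at least 7.74-fold higher. Tnf, Il6 and Il10 did not pass the count filter, with at most 0.463 CPM in any library. The pyroptosis genes Nlrp3, Casp1 and Gsdmd rose by 4.14, 4.19 (4.93 without WT 2) and 2.77, and the receptor genes Tlr2 and Tlr4 by 4.0 and 3.45. Of 25 chemokine genes 13 were tested, 5 rose and 1 fell, where 9.0% of all genes rose and 3.20% fell. Cxcl10, an interferon-induced attractant of T cells, had 0.350, 0.307 and 0.439 CPM in WT and 6.42, 16.5 and 2.66 in MSC-EVs-treated rd10 (4.51), and 3.59 without MSC-EVs 2.

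Among cell death genes, several of death receptor signalling stood high. Of 26 genes 25 were tested, 7 rose and none fell, with a median of 0.71, where 9.0% of all genes rose. Tnfrsf1a, the TNF receptor gene, had 8.67, 9.46 and 8.53 CPM in WT and 74.9, 73.5 and 59.0 in MSC-EVs-treated rd10 (2.95, SE 0.11, edgeR adjusted p = 1.11e-07). Fas rose by 3.03, Casp8 by 2.68 and the necroptosis effector gene Mlkl by 4.43, or 5.31 without WT 1. The mitochondrial genes Bax (0.07), Bak1 (0.55) and Casp9 (0.16) were not called, nor was Parp1 (-0.04). Prkg1, a cGMP-dependent kinase gene, rose by 1.16 and Cast, the calpain inhibitor gene, by 1.04, or 0.93 without MSC-EVs 2.

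Immediate early genes, which cells switch on within minutes of a stimulus, did not move together. Of 24 genes 23 were tested, 6 rose and 1 fell, with a median of 0.03, where 9.0% of all genes rose and 3.20% fell. Atf3, a stress-induced factor, had 6.96, 6.70 and 6.05 CPM in WT and 20.8, 35.3 and 24.9 in MSC-EVs-treated rd10 (2.04, SE 0.20, edgeR adjusted p = 8.15e-05). Fos had 50.7, 60.9 and 59.4 CPM in WT and 31.7, 97.3 and 49.9 in MSC-EVs-treated rd10 (0.06, edgeR adjusted p = 0.921). Egr4 fell by 1.98. Nr4a3, a nuclear receptor gene that the study followed, had 6.13, 7.80 and 9.61 CPM in WT and 5.64, 10.7 and 5.74 in MSC-EVs-treated rd10, with groups that overlapped (-0.10, edgeR adjusted p = 0.781). MSC-EVs 2 was the highest treated library for 19 of the 23 genes.

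Metabolic genes stood slightly below WT with few large differences. Scaling to amacrine and ganglion cell genes and library totals moved the median of all genes to -0.173 and 0.15. Small differences here thus depend on the scaling. Of 25 genes of glycolysis and lactate exchange, all tested, 2 fell, with a median of -0.18, where 3.20% of all genes fell. Hk2, a hexokinase enriched in photoreceptors, had 528, 556 and 589 CPM in WT and 115, 139 and 160 in MSC-EVs-treated rd10 (-2.01, SE 0.12, edgeR adjusted p = 6.88e-06), while Hk1, the more widely expressed isoform, was at 0.08. The lactate transporter gene Slc16a1 fell by 1.12. Of 48 genes of oxidative phosphorylation tested, none was called, the median was -0.30, and 42 were lower at an adjusted p under 0.05 with no limit on fold. Of 22 sterol synthesis genes tested none was called, the median was -0.61, and 18 were lower without the fold limit, with Fdps, an isoprenoid synthase gene, at -0.98. By that rule 27.2% of all genes were lower.

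Few vascular genes were called, and 9 of 19 matrix genes rose. Of 22 endothelial and pericyte genes, all tested, 1 rose and 1 fell, with a median of 0.41, where 9.0% of all genes rose and 3.20% fell. Mfsd2a, a lipid transporter of the blood-retina barrier, rose by 1.34, and Vtn, vitronectin, fell. Vtn, which retinal photoreceptors also express, had 849, 822 and 919 CPM in WT and 214, 236 and 309 in MSC-EVs-treated rd10 (-1.77, SE 0.13, edgeR adjusted p = 4.83e-05). Of 20 fibroblast and matrix genes 19 were tested, and none fell, with a median of 1.01. Col4a1, a basement membrane collagen, had 43.4, 38.5 and 42.7 CPM in WT and 113, 124 and 117 in MSC-EVs-treated rd10 (1.51, SE 0.07, edgeR adjusted p = 2.67e-07). Loxl4, a collagen cross-linking enzyme gene, rose by 2.83.

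Over all genes, the largest fitted rises were those of Gm45837, Gm45234, Ifi206, Tcstv1, Serpina3i, Ifi213, Il1rn, Gm27179, Mx1 and Wfdc17. All but Mx1 had no count in WT. Gm45837, with 100, 260 and 86 counts in MSC-EVs-treated rd10, passed by little (edgeR adjusted p = 0.045), and had 0.0577 to 0.0762 without any 1 WT library or MSC-EVs 1. Against a floor of 3 counts per library, Ifi206, of the interferon-inducible p200 family, was at least 19.7-fold higher, with 107, 53 and 95 counts in MSC-EVs-treated rd10. Il1rn had 16, 42 and 49 counts, and Wfdc17, a secreted protein of myeloid cells, was at least 5.67-fold higher. Which gene the reads came from is uncertain for Gm45837, Gm45234 and Gm27179, which share 98.5%, 96.8% and 100% of their stretches with other genes, and less so for Ifi206 (36.4%), Tcstv1 (28.6%), Serpina3i (27.3%) and Ifi213 (26.5%).

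Among genes with a mean of at least 50 CPM, the largest rises were those of Lcn2, Serpina3n, C3, Mt2, C4b, A2m, Gpnmb, Serping1, Mpeg1 and Nupr1. Mt2, a metal-binding metallothionein, had 41.2, 37.5 and 37.8 CPM in WT and 1120, 1180 and 927 in MSC-EVs-treated rd10 (4.79, SE 0.10, edgeR adjusted p = 5.92e-09). Mpeg1, the macrophage pore former perforin-2, rose by 4.13 and the stress factor gene Nupr1 by 3.81. The list thus joined glial, complement and macrophage genes.

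The largest falls over all genes were those of Gm13304, Gm4756, Glb1l3, Gm3893, Hdc, Ccl27a, Sh2d1a, Ankrd66, Gdf5 and Prss37. Glb1l3, which encodes a galactosidase-like protein, fell from 213, 263 and 241 counts to 2, 11 and 31 (-4.86, SE 0.35, edgeR adjusted p = 7.86e-06). Hdc, the enzyme that makes histamine, had 12.7, 14.3 and 13.6 CPM in WT and 0.940, 1.01 and 0.563 in MSC-EVs-treated rd10 (-4.10, SE 0.21, edgeR adjusted p = 6.29e-07). Gm13304 and Gm3893 share 100% and 97.7% of their stretches with other genes and Ccl27a 57%, and Ccl27a and Sh2d1a overlap Il11ra1 and Tenm1 on the other strand. The size of several of these falls rested on 1 treated library. Without MSC-EVs 2, Gm13304 went from -6.29 to -8.77, Gm4756 from -5.74 to -7.45 and Gm3893 from -4.27 to -4.88. Without MSC-EVs 3, Gm13304 was at -5.22 and Gm4756 at -4.74, while Ankrd66, Gdf5 and Prss37 were at -3.94, -3.90 and -4.51.

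At 50 CPM or more the largest falls included those of Pdzph1, Kcnj14, Esrrb, Rabgef1, Nxnl1, Pdc, Ccdc24, Guca1b and Nrl. Kcnj14, an inward rectifier potassium channel gene, had 713, 683 and 719 CPM in WT and 81.4, 71.2 and 150 in MSC-EVs-treated rd10 (-2.79, SE 0.32, edgeR adjusted p = 0.00134), with 35.6% of its stretches shared with other genes. Rabgef1, an endosomal exchange factor gene, had 365, 394 and 424 CPM in WT and 56.4, 63.8 and 89.6 in MSC-EVs-treated rd10 (-2.49, SE 0.18). Of these 9 genes, 5 belong to the rod or regulator lists. Ccdc24 overlaps B4galt2 and Gm17114 on its own strand, with which it shares 37.2% of its stretches, and the amacrine gene Slc6a9 on the other, so the origin of its reads is uncertain.

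**Figure D4:**
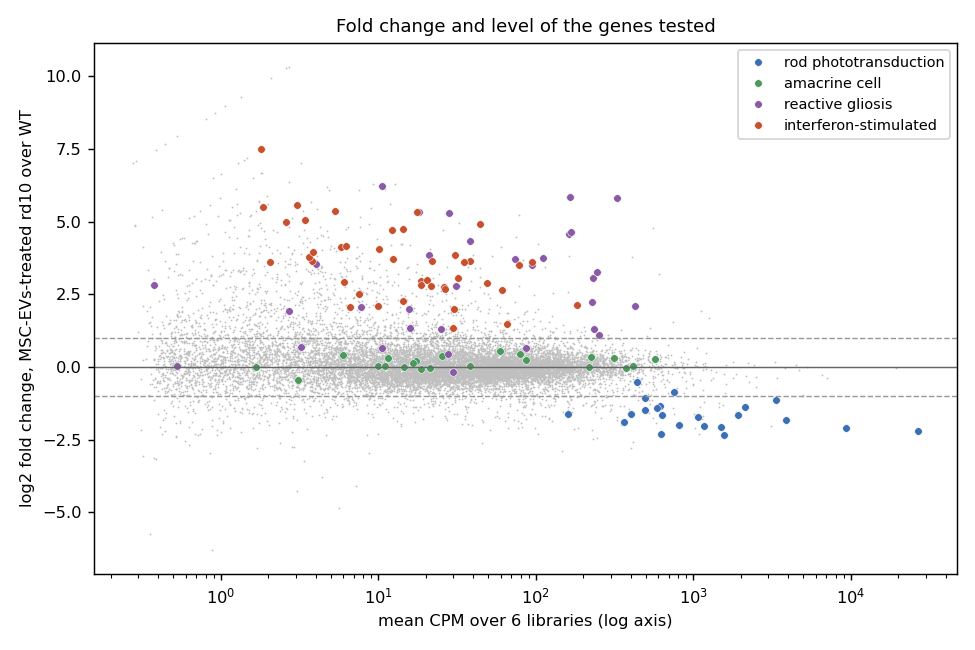
Log2 fold change against mean CPM over 6 libraries (log axis) for 14623 genes in grey, with rod phototransduction, amacrine, gliosis and interferon genes coloured and dashed lines at the fold limit. Rod genes lie among the most abundant genes and below 0, and the 42 interferon genes lie above the upper line.

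The treated libraries were not alike. MSC-EVs 1 was the lowest treated library for 322 of the 468 lower genes, and MSC-EVs 3 the highest for 298. By share of counts, MSC-EVs 3 was nearer to WT than MSC-EVs 1 and 2 in the rod, MHC and interferon lists. The same library stood apart in depth and in Y-linked genes. Ddx3y had 71.6 and 82.3 CPM in MSC-EVs 1 and 2, 0.107 in MSC-EVs 3 and at most 0.307 in WT. The part of these differences in the results was not tested, since the 2 refits given next cannot separate it from the group. Without MSC-EVs 3, Y-linked expression goes with the group. With Y-linked expression as a covariate, the group difference rests mainly on MSC-EVs 3 against WT. Without MSC-EVs 3, 2108 genes were called, 1535 higher and 573 lower, and with Y-linked expression as a covariate 1409 were called, 1024 higher and 385 lower. With that covariate Sag (-0.97), Aipl1 (-0.94), Cx3cr1 (0.99), Tulp3 (0.70), Cast (0.84) and Prkg1 (0.83) were under the fold limit, and Esrrb, P2ry12, Sox9, Lif, Ciita and Arg1 had adjusted p values of 0.0531 to 0.238.

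**Figure D5:**
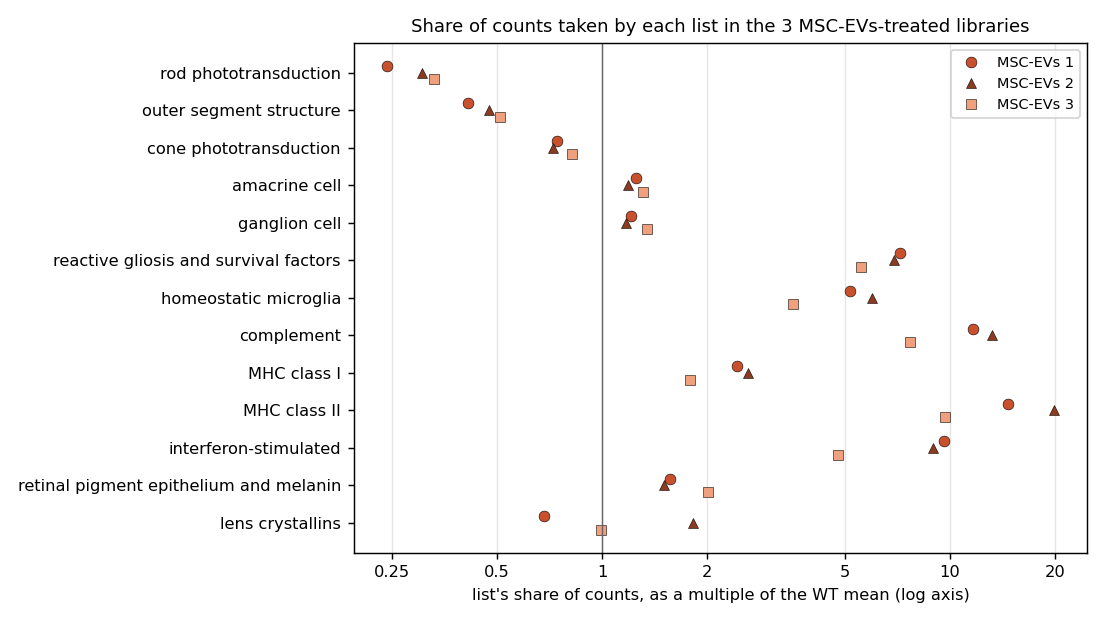
Share of counts taken by each of 13 lists in MSC-EVs 1, 2 and 3, as a multiple of the mean share in WT (log axis, line at 1). The rod list lies at 0.241 to 0.328 and the interferon list at 4.75 to 9.61, and MSC-EVs 3 is nearest to 1 for both.

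Of 182 genes tested within 10 Mb of Pde6b on chromosome 5, 8.79% were higher and 3.30% lower, beside 9.0% and 3.20% over all genes. Among the genes that the study stained, blotted or measured by qPCR, 16 of 21 were tested, 7 rose and 2 fell. This list was chosen by the study, which also made these libraries, and is not independent evidence of a direction.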

How the data were processed

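RNA-seq of 6 P28 retina libraries, WT and MSC-EVs-treated rd10 with 3 each, was used, grouped by the labels. For each gene and library, the authors made estimated counts from the reads and deposited them unscaled, beside FPKM values that they had scaled to transcript length and depth. Per the labels, reads were processed with fastp, Bowtie2, HISAT2, StringTie 1.3.1 and RSEM, with no role or order given. The genome build was not given in the sources used here. Between 9.16% and 11.7% of genes per library had decimals, and the estimated counts were rounded before testing, since the design assumed whole counts. Columns were matched to libraries by name.

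edgeR 4.0.16 in R 4.3.3 was run with filterByExpr, TMM and robust quasi-likelihood fits on these 6 libraries. A call needed an adjusted p under 0.05 and a log2 fold change of 1 or more in size. The SE is the fold change divided by the square root of F. Of 22337 genes, 14623 were tested and 4273 had no count. Replicates differed by more than sampling noise, as chi-square divided by its degrees of freedom was 3.99 to 5.67 in WT and 13.2 to 30.2 in MSC-EVs-treated rd10. The biological coefficient of variation was 10.8%. A count of 3 per library, taken as the floor, stood for 0.0457 to 0.146 CPM. Positions come from GENCODE M21 by gene ID, for 22232 genes, and promoters from RefSeq by symbol. Transcripts were compared in stretches of 31 bases to find those shared with other genes. The test was tried on simulated counts. Some genes that the lists count are not reported here by name.

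Members and gene lists were chosen with earlier results of these data known. Named genes are list members, taken as those with large changes, high levels or a measurement by the study, and the 10 largest rises and falls over all genes and over those with at least 50 CPM whose libraries did not overlap. Alternatives were other scalings and filters, DESeq2 1.42.0, limma 3.58.1 on FPKM, all 9 libraries, a replicate block, a Y-linked covariate, changed thresholds and leaving out each library.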

Additional observations from a re-analysis of the deposited data

How the results depend on the processing

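Limits of 3 libraries per group apply throughout, and genes near the floor of 3 counts rest on few reads. Of 203 named genes tested, 144 were called, 107 of them under each of the 18 alternatives that tested them, and 1 reversed, Bsn, from 0.15 to -0.02 with scaling to amacrine and ganglion cell genes. Left-out libraries gave 1704 to 2108 calls. The replicate numbers did not pair the samples, with correlations of same-numbered libraries of 0.08, 0.04 and 0.02. With library totals alone Cacna1f (narrowly), Rdh8 (-0.99) and Slc16a1 (-0.97) missed the fold limit. With the numbers as a replicate block 1790 genes were called, 1310 higher and 480 lower, 1748 of them shared with the fit without the block. DESeq2 called 1964 and left 1406 adjusted p values undefined, and the fit without a filter called 2016.

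limma on log2(FPKM + 1), whose pseudocount shrinks low genes, called 1002 genes, 816 higher and 186 lower, and 1 inner retinal gene. Scaling to amacrine and ganglion cell genes gave 729 lower genes and 10 ribbon synapse genes. At least 10 counts in every library, which removes genes absent in WT, left 3 MHC class II and 13 NF-κB genes. With no limit on fold, 8117 genes were called, 4137 higher and 3980 lower, 503 of them in the lists, with 7 cone, 15 outer segment, 16 ribbon synapse and 42 inner retinal genes. At an adjusted p under 0.01 and a log2 fold change of at least 2, 626 were called, 561 higher and 65 lower, 166 of them in the lists, with 7 rod, 0 cone, 3 outer segment, 4 regulator, 0 ribbon synapse, 7 homeostatic microglia, 15 disease-associated microglia and 1 inner retinal gene.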

Other observations

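Markers of neighbouring eye tissues were measured in both groups. Of 18 pigment epithelium and melanin genes 17 were tested, and Tyr, Dct and Krt8 rose, by 1.24, 1.38 and 1.64 on the log2 scale. Over all genes tested, 9.0% rose. Rpe65, the isomerase of the visual cycle, had 5.87, 11.4 and 7.31 CPM in WT and 7.36, 5.85 and 21.2 in MSC-EVs-treated rd10. MSC-EVs 3 was the highest treated library for 15 of the 17 genes. Dct lost its call without MSC-EVs 2 (edgeR adjusted p = 0.0556). Tyr fell under the fold limit without WT 1 (0.96) or MSC-EVs 3 (0.88). Krt8 lost its call without any 1 WT library (edgeR adjusted p 0.0665 to 0.077) and was at 0.81 without MSC-EVs 3.

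Of 20 lens genes 19 were tested. Cryab, a small heat shock protein that glia also make, rose by 1.14, and no other was called, where 9.0% of all genes rose. Cryaa, the lens chaperone, ranged from 16.6 to 75.5 CPM in WT and from 4.82 to 74.1 in MSC-EVs-treated rd10. The corneal keratin Krt12 was at or under 0.594 CPM in every library. Tgm1, on the cornea list but a transglutaminase gene of other tissues as well, had 0.131, 0.175 and 0.0975 CPM in WT and 9.97, 8.67 and 3.36 in MSC-EVs-treated rd10 (5.69, edgeR adjusted p = 0.000138). Of 5 erythrocyte genes tested none was called.

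The X-linked partners of the Y-linked genes differed between the same libraries. Kdm5c had 135 and 134 CPM in MSC-EVs 1 and 2, 208 in MSC-EVs 3 and 230 to 247 in WT. Kdm6a had 56.1 and 53.7 CPM in MSC-EVs 1 and 2, 86.1 in MSC-EVs 3 and 82.6 to 84.7 in WT. The labels give no sex, and the part of such differences in other results was not tested, since the Y-linked covariate cannot separate it from the group.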
